A study of Saccharomyces cerevisiae with 9 samples.

Results

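The transcriptomes of 2 homozygous deletion strains of budding yeast, sam2Δ/sam2Δ and sam1Δ/sam1Δ, were set directly against each other, 3 RNA-seq libraries against 3, with no wildtype library in the fit. Of the 7126 genic regions in the deposited table, the 6107 with a value of at least 10 in at least 3 of these 6 libraries were compared. Both strains are MATa/MATα diploids of the W303 background and carry leu2, his3, trp1, ura3 and ade2 mutations on both homologues, lys2 and can1 mutations on 1 homologue, and a marked chromosome fragment with TRP1 and SUP11. SAM1 was replaced by a KANMX cassette in sam1Δ/sam1Δ, which was grown in synthetic complete (SC) medium with G418. SAM2 was replaced by a LEU2 cassette in sam2Δ/sam2Δ, which was grown in SC medium without leucine. Cultures were kept at 30 °C and harvested in mid-exponential phase. Each mutant is a single strain number in the labels, so deleted gene, cassette, medium and any other difference between the 2 strains cannot be told apart in any value below. Nothing in the labels says that replicates came from separate cultures, so P values measure only the spread between these libraries.

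SAM1 and SAM2 encode paralogous AdoMet synthetases, which make S-adenosylmethionine (AdoMet) from methionine and ATP. AdoMet is the methyl donor for RNA, proteins, phospholipids and sterols, and it also feeds polyamine synthesis. Once the methyl group is used, S-adenosylhomocysteine is split by Sah1, and homocysteine is either methylated back to methionine by Met6 or passed on to cysteine and glutathione. SAM1 and SAM2 differ in regulation, so the direct comparison asks how cells that keep only SAM1 differ from cells that keep only SAM2.

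The deleted genes matched the labels in all 6 libraries. Signal of SAM1 (chromosome XII, 515262 to 516410) was 1.06, 1.77 and 0 in sam1Δ/sam1Δ against 2417, 3519 and 3406 in sam2Δ/sam2Δ. Signal of SAM2 (chromosome IV, 1453310 to 1454464) was 18932, 25482 and 22537 in sam1Δ/sam1Δ against 2.43, 4.36 and 6.89 in sam2Δ/sam2Δ. Signal is the deposited value, a number of reads estimated for a gene and divided by a factor of the library. No fold is given for these 2 genes because the deleted gene was at or near 0. The gene that each strain kept was not at the same level: SAM2 in sam1Δ/sam1Δ had a mean of 22317 ± 3280.4 (SD, n = 3) and SAM1 in sam2Δ/sam2Δ a mean of 3114 ± 606, and their coding lengths differ by only 6 bases. The coding sequences are 83.2% identical over 1149 aligned bases in the R64 reference genome. The longest stretch without a difference is 59 bases, and 0 stretches of 75 bases, the read length, occur in both genes, although the closest 75-base stretch differs at only 2 positions. That stretch of 59 bases is shown with 6 bases on either side, in the sense direction, from coding base 694 in SAM1 and 700 in SAM2, with differing bases in capitals, because it is where reads of the 2 genes are hardest to tell apart.
SAM1: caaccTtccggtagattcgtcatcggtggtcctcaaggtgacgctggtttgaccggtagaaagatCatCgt
SAM2: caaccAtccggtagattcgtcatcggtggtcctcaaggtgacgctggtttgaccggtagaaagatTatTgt

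Depth and 2 libraries limit the comparison. The value of 1 read ranged from 0.443 to 2.18 units of signal, and the 6 libraries held about 4.90 to 23.8 M reads, a 4.86-fold range, with the shallowest 2 in sam2Δ/sam2Δ. Within each strain 1 library stood apart along an axis that both strains share, sam1Δ/sam1Δ replicate 1 on one side and sam2Δ/sam2Δ replicate 3 on the other, and that axis held 70.8% of the variance within strains. Along it, the 63 ribosome biogenesis genes lay at least 1.34 apart (median, log2) within either strain, and the 36 heat shock and stress genes lay apart in the other direction, by -1.05 in sam1Δ/sam1Δ and -0.66 in sam2Δ/sam2Δ. sam2Δ/sam2Δ replicate 3 also differed in genes of cell type. MFα1, listed as MF(ALPHA)1, encodes α-factor and is shut off in a/α diploids, and its signal was 44.6, 35.4 and 38.9 in sam1Δ/sam1Δ against 18.2, 30.5 and 1473 in sam2Δ/sam2Δ. STE3, the a-factor receptor gene of α cells, was at 74.4, 66.9 and 74.5 in sam1Δ/sam1Δ against 55.8, 45.7 and 282 in sam2Δ/sam2Δ. The haploid-specific genes FUS3, GPA1 and STE5, which act in the pheromone response, were at 262, 386 and 382 in that library and at no more than 72.2, 156 and 167 in the other 5. Summed over the 4 α-specific genes the signal was 2320 in this library and 422 to 551 in the other 5, over the 8 haploid-specific genes 2333 against 1038 to 1379, and over the 7 a-specific genes 625 against 522 to 953. MFA1, an a-factor gene, was at 13.02 there and at 9.72 or below in the other 5. In bulk RNA, fewer cells of a type and less RNA per cell cannot be told apart. The part that these cell type differences play in other genes was not tested, and the counts of the main gene groups are also given without this library and without sam1Δ/sam1Δ replicate 1. Without either library, the strain that lost it lies on 1 side of the shared axis only, so the strains then differ more in place along it. One side holds sam1Δ/sam1Δ replicate 1 with sam2Δ/sam2Δ replicates 1 and 2. The other holds sam2Δ/sam2Δ replicate 3, the library with the cell type differences, with sam1Δ/sam1Δ replicates 2 and 3. Any difference within a side below thus rests on 1 library of one strain.

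**Figure D1:**
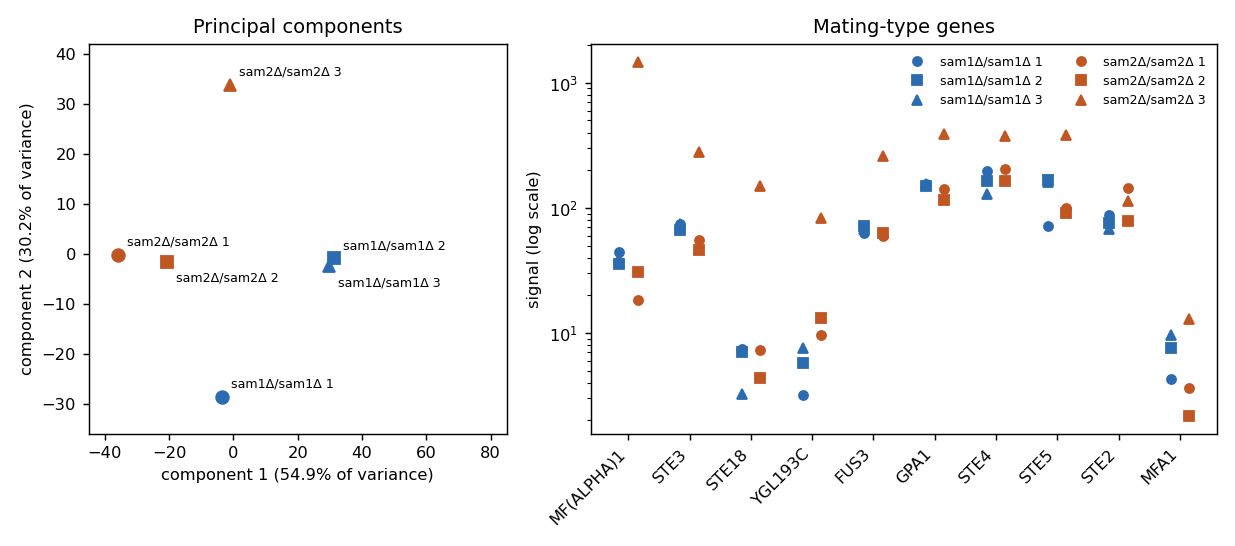
Left, scores of the 6 libraries on the first 2 principal components of log2(signal + 1) over 6107 genes. Right, signal (log scale) of mating-type genes in each library, where sam2Δ/sam2Δ replicate 3 lies above the other 5 libraries for MF(ALPHA)1, STE3, STE18, YGL193C, FUS3, GPA1, STE4 and STE5 but not for STE2.

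A gene was counted as differentially expressed (DEG) by the cutoffs of the study, which are 0.05 for the unadjusted P (here from limma) and 0.58 for the size of the log2FC, where log2FC is sam2Δ/sam2Δ minus sam1Δ/sam1Δ of log2(signal + 1). By this rule 730 of 6107 genes differed (12.0%), 365 higher in sam2Δ/sam2Δ (5.98%) and 365 lower (5.98%). After adjustment over all 6107 genes, 18 passed at 0.05 (0.295%), 7 higher and 11 lower. Among them, SAM1 and SAM2 are the deleted genes, and PDR18, YNR071C, HXT17, MAN2 and AIF1 passed the filter only through sam2Δ/sam2Δ. These genes had to differ once tested. The 2 groups of 3 did not overlap in 1552 genes (25.4%), and 616 of the 730 DEGs were among them. Among the DEGs described below by their log2FC alone, the groups overlap for PRO2, GLN3, HMX1, DUG1, GTO1, GTO3, GPX2, MEU1, NOP2, TRM112, DPH5, CPT1, MET2, RPL14B and NPL3. A locus shared with another annotated gene, between which the reads had to be divided, was found for 155 of the 730, among them ARG5,6, CAR2, TRP1, TRP4, ARN2, ARO9, MET2, YPS3 and GRE2. Differences beyond 1 on the log2 scale were found in 135 higher and 104 lower DEGs. Without sam2Δ/sam2Δ replicate 3 there were 950 DEGs (15.6%), 607 of them shared with the 730, and without sam1Δ/sam1Δ replicate 1 there were 1207 (19.8%), 645 of them shared. Counts of gene lists in these 2 fits are to be set beside these raised shares. The 365 to 365 split depends on scaling: it was 462 higher and 271 lower with signal scaled to the library total, and 487 and 263 with limma-voom on reads recovered from the values.

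**Figure D2:**
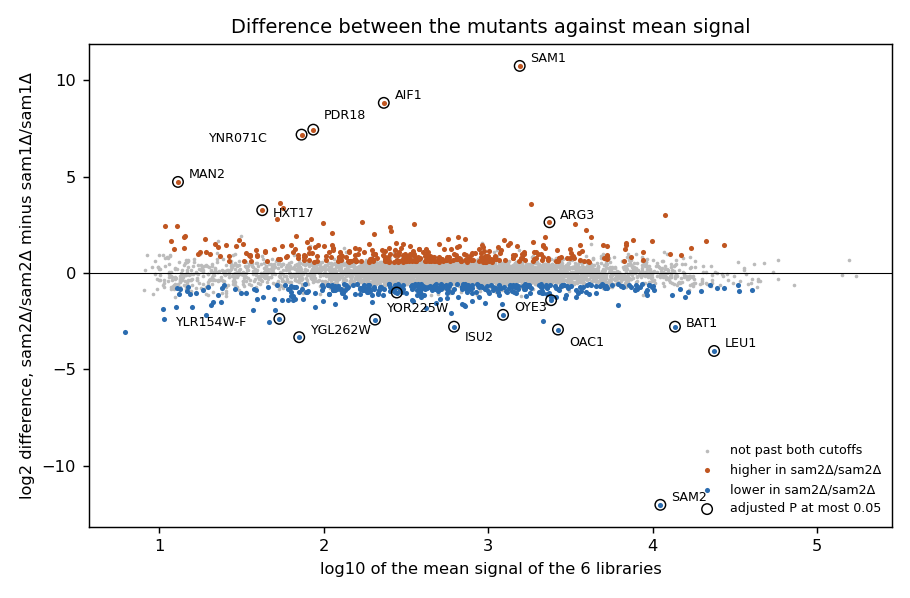
Log2 difference between the mutants (sam2Δ/sam2Δ minus sam1Δ/sam1Δ, log2 of signal + 1) against the log10 mean signal of the 6 libraries, 1 point per gene. Colours mark the 365 higher and 365 lower DEGs and circles the 18 that passed adjustment; the heights of genes at or near 0 in a strain depend on the added 1 and are no fold.

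The difference between the mutants moved with the base composition of the genes. Across 6103 genes with a known sequence, GC content and log2FC had a Spearman correlation of -0.46, a description of genes within the same libraries. In the lowest of 5 equal classes by GC content (23 to 37.4%) 182 DEGs were higher and 11 lower in sam2Δ/sam2Δ, while in the highest (42.8 to 59.1%) 24 were higher and 260 lower. All 3 sam1Δ/sam1Δ libraries lay above the mean of the 6 in the GC-rich class, by medians of 0.10 to 0.22 on the log2 scale, and all 3 sam2Δ/sam2Δ libraries lay below it, by -0.06 to -0.31. With a smooth GC trend removed from each library, chosen after seeing the data, 455 DEGs were left (7.45%), 280 higher and 175 lower, and 356 were shared with the 730. Of the 18 genes past an adjusted P of 0.05, 17 passed again. SAM1, SAM2, PDR18, YNR071C, HXT17, MAN2 and AIF1 are among the 18 and had to differ, so for them passing again is no test. Which part of this trend belongs to the libraries and which to the strains was not tested, and counts of the main gene groups are given with the trend removed as well.

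**Figure D3:**
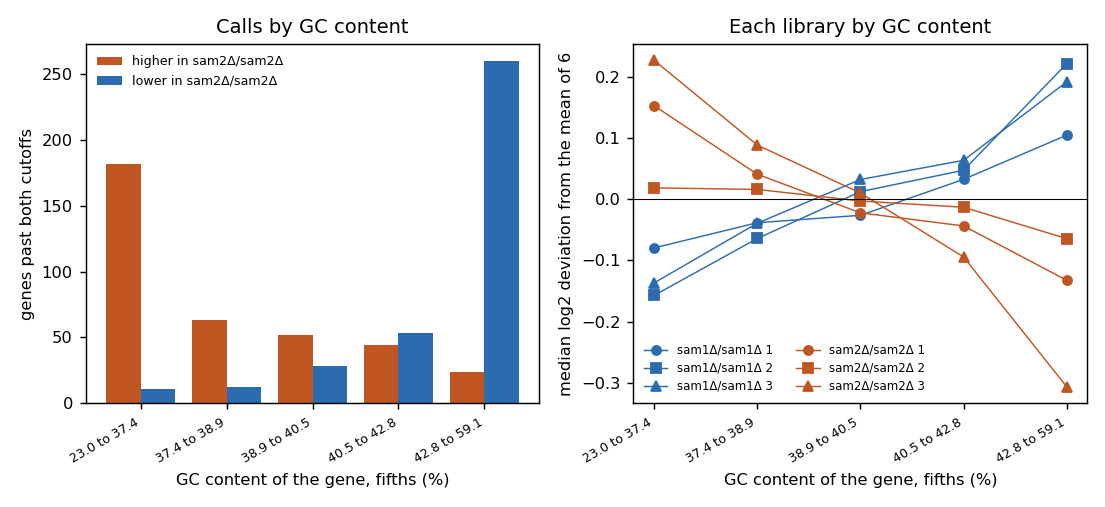
Left, number of DEGs higher and lower in sam2Δ/sam2Δ in 5 equal classes of genes by GC content. Right, median log2 deviation of each library from the mean of the 6 in the same classes; the sam1Δ/sam1Δ and sam2Δ/sam2Δ libraries cross, with sam2Δ/sam2Δ replicate 3 the lowest in the GC-rich class (-0.31).

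The genes of the leucine pathway that differed were all lower in sam2Δ/sam2Δ, and apart from the deleted genes LEU1 differed by more than any other gene with signal in both strains. Leucine is made in a branch off valine synthesis, and its intermediate α-isopropylmalate turns the regulator Leu3 from a repressor into an activator. LEU1 (chromosome VII, 476313 to 478652), the isopropylmalate isomerase, was at 66060.2, 36679.5 and 31684 in sam1Δ/sam1Δ against 2212, 2594 and 2923 in sam2Δ/sam2Δ (log2FC -4.05 with an SE of 0.31, adjusted P = 0.0022). OAC1 (chromosome XI, 217344 to 218318), a mitochondrial carrier that exports isopropylmalate, was at 5695, 4666 and 3784 in sam1Δ/sam1Δ against 538, 573 and 717 in sam2Δ/sam2Δ (log2FC -2.94 with an SE of 0.20, adjusted P = 0.0017). BAT1 (chromosome VIII, 517532 to 518713), the mitochondrial branched-chain aminotransferase, was at 30224, 22090.5 and 19582 in sam1Δ/sam1Δ against 3322, 4144 and 2854 in sam2Δ/sam2Δ (log2FC -2.79 with an SE of 0.24, adjusted P = 0.0046). No library of one strain reached the range of the other for these 3 genes, and each call held with any 1 library left out. LEU4, the first enzyme of the branch, was at 24434, 12675 and 10823 in sam1Δ/sam1Δ against 29599.7, 19075 and 11678 in sam2Δ/sam2Δ, so the groups overlap, and its log2FC was 0.33 (95% interval -0.71 to 1.36). LEU2, which is the marker of the deletion cassette in sam2Δ/sam2Δ and is also read from the leu2 alleles of both strains, was at 17812, 13942 and 12266 in sam1Δ/sam1Δ against 11996, 23469.8 and 12412 in sam2Δ/sam2Δ (log2FC 0.07, 95% interval -0.69 to 0.82). Of the 9 genes of the branch 3 were lower and 0 higher, and the same counts were found without sam2Δ/sam2Δ replicate 3, without sam1Δ/sam1Δ replicate 1 and with the GC trend removed. The median of the 9 was 0.07, against -0.01 over all genes, and the share called was 33.3%, against 12.0%. Leucine was left out of the medium of one strain only, and the medium, the LEU2 cassette and the loss of SAM2 cannot be told apart here.

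Upstream of this branch, genes of isoleucine and valine synthesis were lower as well. ILV5, the acetohydroxyacid reductoisomerase, was at 24193, 22427 and 19700.0 in sam1Δ/sam1Δ against 11006, 8580.4 and 8351 in sam2Δ/sam2Δ (log2FC -1.25 with an SE of 0.21, adjusted P = 0.076). ILV2, the acetolactate synthase, was at 22330.3, 17779 and 15652 in sam1Δ/sam1Δ against 13581, 8323 and 10054 in sam2Δ/sam2Δ (log2FC -0.82 with an SE of 0.26, adjusted P = 0.17), and BAP2, a permease for branched-chain amino acids, was at 18662, 10546 and 9312 in sam1Δ/sam1Δ against 7638, 5214 and 4298 in sam2Δ/sam2Δ (log2FC -1.14 with an SE of 0.34, adjusted P = 0.15). The groups do not overlap for any of the 3. Of 10 genes tested 3 were lower and 0 higher, 30% called against 12.0% over all genes. The count of lower genes was 4 without sam2Δ/sam2Δ replicate 3, 4 without sam1Δ/sam1Δ replicate 1 and 2 with the GC trend removed, where ILV2 fell short on P.

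The genes with the core Leu3 motif in front of them are few, which makes their values easy to show. The motif CCGGNNCCGG, which reads the same on both strands in its fixed letters, occurs within 500 bases before the start codon of 16 of 6000 protein-coding genes (0.267%). Of the 316 DEGs lower in sam2Δ/sam2Δ with such a window 9 hold it (2.85%), and of the 328 higher 0 do. The 16 genes, named by the motif after their values were seen, had a median log2FC of -0.73, and 13 were below 0. The 9 lower DEGs are LEU1, BAT1, FSF1 (-2.10), ILV5, BAP2, DRE2 (-0.99), ILV2, MGM101 (-0.64) and NPL3 (-0.63). Without sam2Δ/sam2Δ replicate 3 there were 11 and with the GC trend removed 6. GDH1, the NADP-linked glutamate dehydrogenase, was at 6071, 15245 and 14403 in sam1Δ/sam1Δ against 2856, 4665 and 9286 in sam2Δ/sam2Δ (log2FC -1.14, unadjusted P = 0.063) and overlapped. LEU2 holds the motif and did not pass the cutoffs, and OAC1 does not hold it in this window. A match to letters is a description and not a bound site. Shown for LEU1, BAT1, ILV5, BAP2 and LEU2 are 30 bases around the match in the direction of the gene, with the motif in capitals. ILV2 and GDH1, the other genes of the leucine and branched-chain lists with a match, are not shown. The R64 positions are chrVII:478850-478879 on the minus strand (LEU1), chrVIII:517375-517404 on the plus strand (BAT1), chrXII:839611-839640 on the minus strand (ILV5), chrII:376057-376086 on the minus strand (BAP2) and chrIII:91116-91145 on the plus strand (LEU2).
LEU1: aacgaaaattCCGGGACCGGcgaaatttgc
BAT1: attgtgtttgCCGGTACCGGcctttaagct
ILV5: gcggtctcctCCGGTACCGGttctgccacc
BAP2: ttttgtgggaCCGGAACCGGcatccacatt
LEU2: ggtgagagcgCCGGAACCGGcttttcatat

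Arginine biosynthesis genes differed in the other direction. Of its 13 genes 9 were higher in sam2Δ/sam2Δ and 0 lower, with a median log2FC of 1.26 against -0.01 over all genes. The share called was 69.2%, against 12.0% over all genes. ARG3 (chromosome X, 268799 to 269815), the ornithine carbamoyltransferase, was at 803, 656 and 475 in sam1Δ/sam1Δ against 4428, 2565 and 5250.0 in sam2Δ/sam2Δ (log2FC 2.63 with an SE of 0.31, adjusted P = 0.023) and was the only gene of amino acid synthesis that was higher past adjustment. ARG1, the argininosuccinate synthase, was at 12952, 9211 and 7505 in sam1Δ/sam1Δ against 48804, 26403 and 22302 in sam2Δ/sam2Δ (log2FC 1.67 with an SE of 0.36, adjusted P = 0.094). CPA1, the small subunit of carbamoyl phosphate synthetase, was at 8888, 11872 and 11092 in sam1Δ/sam1Δ against 22861, 11753 and 16989.5 in sam2Δ/sam2Δ, with groups that overlap and a log2FC of 0.65 (95% interval -0.03 to 1.33). In the ornithine branch, ARG7, ARG5,6, ARG8 and ARG2 had log2FC of 1.54, 1.47, 1.00 and 0.64. ORT1, the mitochondrial ornithine carrier, was at 315, 321 and 284 in sam1Δ/sam1Δ against 1171, 536 and 624 in sam2Δ/sam2Δ (log2FC 1.26). ARG4, the argininosuccinate lyase, had a log2FC of 1.31, but sam1Δ/sam1Δ replicate 1 at 15278 lay just above sam2Δ/sam2Δ replicate 3 at 15226. The count was also 9 without sam2Δ/sam2Δ replicate 3 and with the GC trend removed, and 10 without sam1Δ/sam1Δ replicate 1. The regulators ARG80, ARG81 and ARG82 were not among the 9. The enzymes that break arginine down were lower: CAR1, arginase, was at 1703, 2711 and 2678 in sam1Δ/sam1Δ against 807, 884 and 1377 in sam2Δ/sam2Δ (log2FC -1.22 with an SE of 0.27, adjusted P = 0.096) and CAR2, ornithine transaminase, at 989, 1153 and 979 in sam1Δ/sam1Δ against 400.5, 409 and 234 in sam2Δ/sam2Δ (log2FC -1.62 with an SE of 0.24, adjusted P = 0.067), each without overlap. With the GC trend removed CAR2 was still called at -0.82. Of 15 genes of arginine and proline breakdown 2 were lower and 2 higher, the latter PRO2 and the permease gene CAN1. That is 26.7% of the list, against 12.0% over all genes.

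**Figure D4:**
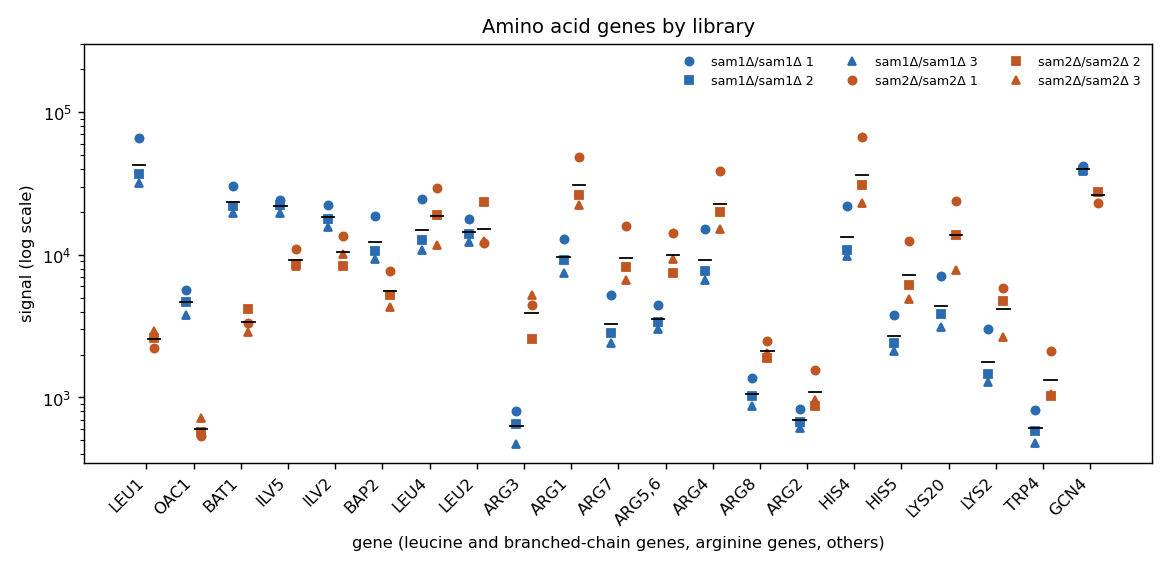
Signal (log scale) of amino acid genes in the 6 libraries, with bars at the geometric mean of each strain. The leucine and branched-chain genes LEU1 to BAP2 are lower in sam2Δ/sam2Δ, and ARG3 to ARG2 are higher in sam2Δ/sam2Δ, with replicate 1 the highest library of each strain for most of the latter.

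Other pathways under general amino acid control were higher in part. This control acts through the activator Gcn4, whose levels are set mainly by translation. Of 7 histidine genes tested 4 were higher, led by HIS4 at 22072, 10819 and 9768 in sam1Δ/sam1Δ against 66848, 31000.5 and 22963 in sam2Δ/sam2Δ (log2FC 1.45) and HIS5 at 3758, 2424 and 2132 in sam1Δ/sam1Δ against 12581, 6106 and 4859.5 in sam2Δ/sam2Δ (log2FC 1.42), with HIS1 (0.80) and HIS7 (0.76). Of 12 lysine genes 4 were higher: LYS20, a homocitrate synthase, at 7055, 3874 and 3127 in sam1Δ/sam1Δ against 23783, 13648 and 7836 in sam2Δ/sam2Δ (log2FC 1.63), the carrier gene ODC2 (1.30), LYS2 (1.23) and the regulator gene LYS14 (0.79). Of 12 aromatic amino acid genes TRP4 (1.11) and TRP3 (1.09) were higher and TRP1 was lower. The shares called were 57.1% for histidine, 33.3% for lysine and 25% for aromatic genes, against 12.0% over all genes. No gene of these lists passed adjustment, and the HIS4 call held in 3 of 6 fits that left out 1 library. The counts of higher genes without sam2Δ/sam2Δ replicate 3 were 5 for histidine, 8 for lysine and 5 for aromatic genes, without sam1Δ/sam1Δ replicate 1 they were 3, 6 and 5, and with the GC trend removed 5, 3 and 3. GCN4 itself was lower at 41642, 39321 and 38436 in sam1Δ/sam1Δ against 23214, 27716 and 27391 in sam2Δ/sam2Δ (log2FC -0.61, adjusted P = 0.22), and fell short with the GC trend removed (-0.54). The Gcn4 core motif TGACTC, searched on both strands, lies within 500 bases before the start codon of 11 of 13 arginine genes (84.6%), 7 of 8 histidine genes (87.5%) and 5 of 12 lysine genes (41.7%), and before 12.7% of all 6000 genes. It was found for 70 of 328 higher DEGs (21.3%) and 52 of 316 lower ones (16.5%). Of the higher lysine genes, LYS20 has 0 matches in this window, while LYS2, LYS14 and ODC2 have 1 each. ARG3 has 2 matches, shown with 30 bases each and the motif in capitals, from chrX:268349-268378 and chrX:268473-268502 on the plus strand.
ARG3, far: cgttagcaaccaTGACTCcagtaaacaaaa
ARG3, near: agggtcacgtcgTGACTCatatgctttctt

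Permease genes gave a mixed picture. Of 37 genes of amino acid and nitrogen uptake, with their regulators, 4 were higher and 2 lower, the latter BAP2 and GCN4, the former GAP1, DAL80, CAN1 (0.76) and GLN3, an activator of nitrogen genes (0.70). That is 16.2% of the list, not far from the 12.0% over all genes. GAP1, the general amino acid permease, was at 1304, 4596 and 4993 in sam1Δ/sam1Δ against 6228, 8624 and 19719.8 in sam2Δ/sam2Δ (log2FC 1.71), without overlap but with sam2Δ/sam2Δ replicate 3 by far the highest, and the call was lost without that library (log2FC 1.24) and without sam1Δ/sam1Δ replicate 1 (1.09), and held in 3 of 6 fits that left out 1 library. DAL80, a repressor of nitrogen catabolic genes that shares its locus with another gene, was at 141, 128 and 152 in sam1Δ/sam1Δ against 255, 233 and 516 in sam2Δ/sam2Δ (log2FC 1.15) and held with any 1 library left out. The list held 2 higher and 6 lower genes without sam2Δ/sam2Δ replicate 3, 1 and 4 without sam1Δ/sam1Δ replicate 1, and 4 and 1 with the GC trend removed. Of the ammonium permeases, MEP2 was at 815, 4617 and 5228 in sam1Δ/sam1Δ against 3146, 4011 and 12183 in sam2Δ/sam2Δ, so a difference could not be told from the spread (95% interval -0.92 to 2.90), and MEP1 and MEP3 had log2FC of -0.02 and -0.55.

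The iron regulon is the set of genes that Aft1 and Aft2 turn on when iron is short. Of 32 genes tested 11 were lower in sam2Δ/sam2Δ, 0 higher and 21 did not pass, with a median log2FC of -0.37. The share called was 34.4%, against 12.0% over all genes. The count of lower genes was 14 without sam2Δ/sam2Δ replicate 3, 14 without sam1Δ/sam1Δ replicate 1 and 9 with the GC trend removed. ISU2 (chromosome XV, 761614 to 762084), a scaffold for iron-sulfur clusters, was at 883, 1268 and 1106 in sam1Δ/sam1Δ against 138, 137 and 193 in sam2Δ/sam2Δ (log2FC -2.79 with an SE of 0.21, adjusted P = 0.0022). YOR225W is annotated at the same locus and was at 339, 389 and 311 in sam1Δ/sam1Δ against 54.6, 58.8 and 79.6 in sam2Δ/sam2Δ (log2FC -2.42, adjusted P = 0.0035), and reads of the 2 were divided by the authors' program. FIT2 and FIT3, cell wall mannoproteins that hold siderophore iron, were at 1854, 4273 and 4679 in sam1Δ/sam1Δ against 464, 344 and 1309 in sam2Δ/sam2Δ (log2FC -2.49) and 781, 1258 and 1214 in sam1Δ/sam1Δ against 322, 289.6 and 411 in sam2Δ/sam2Δ (log2FC -1.65). For the high-affinity uptake pair, FET3, the multicopper oxidase, was at 4849.9, 12102 and 11219 in sam1Δ/sam1Δ against 1717, 2940.0 and 3939 in sam2Δ/sam2Δ (log2FC -1.68 with an SE of 0.44, adjusted P = 0.13), and FTR1, the permease, at 821, 2354 and 2247 in sam1Δ/sam1Δ against 244, 629 and 998 in sam2Δ/sam2Δ (log2FC -1.61), where sam1Δ/sam1Δ replicate 1 overlaps sam2Δ/sam2Δ and the call held in 2 of 6 fits that left out 1 library. With the GC trend removed FIT3 was called at -0.92 and FTR1 was not called. TIS11, which marks mRNAs of iron-using pathways for decay, was at 1092, 1065 and 1127 in sam1Δ/sam1Δ against 307, 503 and 247 in sam2Δ/sam2Δ (log2FC -1.70 with an SE of 0.26, adjusted P = 0.074). The siderophore transporter genes SIT1, ARN2 and ARN1 had log2FC of -1.59, -0.84 and -0.82, HMX1, the heme oxygenase, -0.77, and COT1, a vacuolar cobalt transporter, -0.75. AFT1 was at 1445, 1527 and 1580.1 in sam1Δ/sam1Δ against 966, 1039 and 1044 in sam2Δ/sam2Δ, a log2FC of -0.58 that missed the fold limit before rounding, and AFT2 had a log2FC of 0.09. Within 500 bases before the start codon, 22 of 33 genes of the list hold the Aft1 core motif TGCACCC on either strand (66.7%), against 2.33% of all 6000 genes, 6.65% of the lower and 2.74% of the higher DEGs, while ISU2 does not hold it. The gene with the most matches is FIT2 with 4, of which the 2 in the direction of the gene are shown with 30 bases and the motif in capitals, from chrXV:1059254-1059283 and chrXV:1059271-1059300 on the plus strand, which overlap.
FIT2, far: atttaaaacaaTGCACCCtaagttcaaatg
FIT2, near: ctaagttcaaaTGCACCCcccctcgccccg

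Copper genes followed in the same direction, with 3 of 11 lower and 0 higher, also without sam2Δ/sam2Δ replicate 3 and with the GC trend removed. That is 27.3% of the list, against 12.0% over all genes. CUP2, the copper-sensing activator, was at 205, 363 and 319.8 in sam1Δ/sam1Δ against 129.9, 142 and 129 in sam2Δ/sam2Δ (log2FC -1.10 with an SE of 0.23, adjusted P = 0.094). CCS1, the chaperone that loads copper onto superoxide dismutase, was at 1597, 2356 and 2073 in sam1Δ/sam1Δ against 777, 1124 and 988 in sam2Δ/sam2Δ (log2FC -1.06 with an SE of 0.21, adjusted P = 0.088), and CTR1, the high-affinity importer, at 1262, 1937 and 1869 in sam1Δ/sam1Δ against 703, 832 and 1066 in sam2Δ/sam2Δ (log2FC -0.96 with an SE of 0.23, adjusted P = 0.11). The groups do not overlap for the 3 genes, and CUP2 and CTR1 share their loci with another gene. Without sam1Δ/sam1Δ replicate 1, 4 were lower.

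Of the zinc and phosphate genes, 4 of the zinc regulon were higher and 2 of phosphate uptake lower in sam2Δ/sam2Δ than in sam1Δ/sam1Δ. In wildtype, outside the fit, ZRT1 was at 18287, 10233 and 12700 and PHO84 at 7642, 718 and 796. ZRT1 (chromosome VII, 20978 to 22108), the high-affinity zinc importer, was at 4698, 2094 and 1395 in sam1Δ/sam1Δ against 22597, 30142 and 11007 in sam2Δ/sam2Δ (log2FC 3.03 with an SE of 0.53, adjusted P = 0.076). ZAP1, the activator that responds to zinc shortage, was at 544, 687 and 662 in sam1Δ/sam1Δ against 2039, 1836 and 1106 in sam2Δ/sam2Δ (log2FC 1.35 with an SE of 0.25, adjusted P = 0.079). ZPS1, a secreted protein of the zinc regulon, was at 163, 186 and 155 in sam1Δ/sam1Δ against 1704, 8210.2 and 594 in sam2Δ/sam2Δ (log2FC 3.59) and ADH4, an alcohol dehydrogenase under the same control, at 612, 685 and 633 in sam1Δ/sam1Δ against 1769, 8776 and 822 in sam2Δ/sam2Δ (log2FC 1.86). The groups do not overlap for these 4 genes, but the 3 sam2Δ/sam2Δ libraries differ widely in ZPS1 and ADH4, with replicate 2 the highest. The ADH4 call held in only 2 of 6 fits that left out 1 library, with a log2FC from 0.91 to 2.61, while ZPS1 kept its call with 2.58 to 4.48. Of the phosphate uptake genes, PHO84 was at 1099, 1402 and 1611 in sam1Δ/sam1Δ against 540.1, 638 and 1141 in sam2Δ/sam2Δ (log2FC -0.89) and PHO89 at 113, 202 and 189 in sam1Δ/sam1Δ against 83.7, 63.2 and 119 in sam2Δ/sam2Δ (log2FC -0.91), and both overlap through sam2Δ/sam2Δ replicate 3 and kept the call in only 2 of 6 such fits. The list of 22 zinc and phosphate genes held 4 higher and 2 lower DEGs, 27.3% of the list against 12.0% over all genes. The counts were 6 and 4 without sam2Δ/sam2Δ replicate 3, 3 and 2 without sam1Δ/sam1Δ replicate 1, and 5 and 3 with the GC trend removed. The Zap1 motif, which reads alike on both strands and allows any base at its centre, occurs within 500 bases before the start codon of 9 of 6000 genes (0.15%). In this list only ZRT1 holds it, shown with 30 bases and the motif in capitals at chrVII:20765-20794 on the plus strand.
ZRT1: acatatttgACCTTGAAGGTcatggaaagt

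In the methyl cycle, 3 enzymes that follow AdoMet were lower in sam2Δ/sam2Δ. SAH1, the adenosylhomocysteinase, was at 16838, 25588 and 23019 in sam1Δ/sam1Δ against 7853, 15323 and 10158 in sam2Δ/sam2Δ (log2FC -1.01 with an SE of 0.31, adjusted P = 0.16). MET6, the methionine synthase, was at 41319, 46767 and 44255 in sam1Δ/sam1Δ against 22322, 26312 and 21361 in sam2Δ/sam2Δ (log2FC -0.92 with an SE of 0.23, adjusted P = 0.12), and ADO1, the adenosine kinase, at 4364, 7412 and 6379.9 in sam1Δ/sam1Δ against 3313, 4728 and 3614 in sam2Δ/sam2Δ (log2FC -0.62 with an SE of 0.25, adjusted P = 0.24), where sam1Δ/sam1Δ replicate 1 overlaps sam2Δ/sam2Δ replicate 2. With SAM1 and SAM2 themselves, the list of 12 genes held 4 lower and 1 higher, 3 and 1 without sam2Δ/sam2Δ replicate 3, and 4 and 2 without sam1Δ/sam1Δ replicate 1, and with the GC trend removed ADO1 (-0.14) was no longer among them. Of 15 genes of sulfate uptake and assimilation 5 were lower and 1 higher, 40% called against 12.0% over all genes. The lower ones were the siroheme synthesis genes MET8 (-1.14) and MET1 (-0.58), MET5, the sulfite reductase subunit, at 3783, 1731 and 1888 in sam1Δ/sam1Δ against 1024, 1006 and 1358 in sam2Δ/sam2Δ (log2FC -1.05), the sulfate permease gene SUL2 (-0.67) and MET2 (-0.65). HOM3, the aspartate kinase that opens the path to homoserine, was at 2217, 1653 and 1557 in sam1Δ/sam1Δ against 8234, 2727 and 5311 in sam2Δ/sam2Δ (log2FC 1.46). These counts were 6 lower and 1 higher without sam2Δ/sam2Δ replicate 3, 2 and 1 without sam1Δ/sam1Δ replicate 1, and 1 and 1 with the GC trend removed, when only MET5 was left as lower. MET28, a cofactor of the activator Met4, was the 1 higher gene of 8 Met4 regulators, at 26.6, 8.42 and 12.97 in sam1Δ/sam1Δ against 66.7, 32.7 and 28.3 in sam2Δ/sam2Δ (log2FC 1.40), a low signal at a shared locus. That is 12.5% of the list, near the 12.0% over all genes.

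Cysteine and glutathione genes split into 4 higher and 6 lower of 27, which is 37.0% called against 12.0% over all genes. CYS3 and CYS4, the enzymes from homocysteine to cysteine, were at 3762, 3512 and 2894 in sam1Δ/sam1Δ against 992, 1938 and 1399.6 in sam2Δ/sam2Δ (log2FC -1.28) and 8895, 11148 and 10338 in sam1Δ/sam1Δ against 4273, 6653 and 6623 in sam2Δ/sam2Δ (log2FC -0.81). GSH1, which sets the rate of glutathione synthesis, was at 2174, 2092 and 2161 in sam1Δ/sam1Δ against 1124, 1344 and 1199 in sam2Δ/sam2Δ (log2FC -0.81 with an SE of 0.13, adjusted P = 0.076). STR2, which works in the opposite direction from cysteine, was at 2115, 1296 and 1248 in sam1Δ/sam1Δ against 5801, 2968 and 2246 in sam2Δ/sam2Δ (log2FC 1.17), and GRX4, a glutaredoxin that also restrains Aft1, was at 508, 265 and 279 in sam1Δ/sam1Δ against 1627, 699 and 635 in sam2Δ/sam2Δ (log2FC 1.42). For CYS3, CYS4, GSH1, STR2 and GRX4 the groups do not overlap. The peptidase gene DUG1 (0.81) and the glutathione transferase gene GTO1 (0.96) were higher, and GTO3 (-0.76), DUG3 (-0.62) and the peroxidase gene GPX2 (-0.66) lower. The counts were 5 and 5 without sam2Δ/sam2Δ replicate 3, 4 and 6 without sam1Δ/sam1Δ replicate 1, and 3 and 5 with the GC trend removed. In polyamine synthesis and methylthioadenosine salvage MDE1 (-0.81) and MEU1 (-0.77), both of the salvage pathway, were lower and ARO9, a transaminase of aromatic amino acids that also serves the salvage pathway, higher (1.48) of 16. SPE2, the AdoMet decarboxylase, was at 659.9, 877 and 760.1 in sam1Δ/sam1Δ against 492, 651 and 546 in sam2Δ/sam2Δ, without overlap, and its log2FC of -0.44 missed the fold limit. The share called on this list was 18.75%, against 12.0% over all genes. With the GC trend removed neither MDE1 nor MEU1 passed.

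Of 71 genes of AdoMet-dependent methyltransferases tested 2 were higher and 5 lower, 9.86%, a share near the 12.0% over all genes. RKM4, which methylates ribosomal proteins, was at 332, 373 and 306 in sam1Δ/sam1Δ against 659, 462 and 688 in sam2Δ/sam2Δ (log2FC 0.82), and CRG1, which methylates the toxin cantharidin, at 1239, 1302 and 1384 in sam1Δ/sam1Δ against 2175, 2132 and 1854 in sam2Δ/sam2Δ (log2FC 0.65). Lower were TAE1, an amino-terminal methyltransferase, at 383, 647 and 515 in sam1Δ/sam1Δ against 225, 279 and 266 in sam2Δ/sam2Δ (log2FC -0.98), the rRNA enzyme gene NOP2 (-0.95), TRM112, a shared partner of several methyltransferases (-0.67), DPH5 of diphthamide synthesis (-0.65) and the tRNA enzyme gene TRM9 (-0.62). With the GC trend removed RKM4 and NOP2 remained. Without sam1Δ/sam1Δ replicate 1, where 19.8% of all genes were called, there were 3 higher and 15 lower. Between libraries on the same side of the shared axis, the median of the 71 was 0.05 and 0.02, against -0.11 over all libraries. Each of these 2 values rests on 1 library of one strain. TMT1, the trans-aconitate methyltransferase, was at 3226, 1192 and 1085 in sam1Δ/sam1Δ against 8043, 3301 and 2169 in sam2Δ/sam2Δ and overlapped (log2FC 1.26, 95% interval -0.11 to 2.63). OPI3, ERG6, EFM3, EFM6, PPM2, NOP1, BUD23, EMG1, TRM5 and TRM13 did not pass the cutoffs, with log2FC from -1.01 to -0.07. Of 18 genes of phospholipid methylation and inositol control, INO2, an activator of phospholipid genes, was lower (-0.87) and CPT1, a cholinephosphotransferase, higher (0.86). That is 11.1% of the list, near the 12.0% over all genes, and CPT1 was not called with the GC trend removed.

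At the right end of chromosome XIV a run of genes was without signal in sam1Δ/sam1Δ only. Going outward, PDR18 (chromosome XIV, 765375 to 769376), a transporter gene, was listed at 0 in all 3 sam1Δ/sam1Δ libraries and at 152, 185 and 182 in sam2Δ/sam2Δ. YNR071C was listed at 0 in sam1Δ/sam1Δ and at 120.1, 189 and 131 in sam2Δ/sam2Δ, MAN2, a mannitol dehydrogenase gene, at 0 and at 21.8, 21.8 and 34.5, and AIF1 (chromosome XIV, 777602 to 778738), an apoptosis-inducing factor homologue, at 0 and at 612, 389.8 and 392. HXT17, a hexose transporter gene between them, was at 8.501, 7.53 and 5.402 in sam1Δ/sam1Δ against 94.7, 56.6 and 81.2 in sam2Δ/sam2Δ (log2FC 3.26). HXT17 and MAN2 have near-identical copies elsewhere in the genome, so their reads may be divided between copies. All 5 passed the filter only through sam2Δ/sam2Δ, so they had to differ once tested and their P values are not given. No fold is given against a group at 0. The 2 genes on the inner side had signal in both strains: YNR068C was at 456, 185 and 193 in sam1Δ/sam1Δ against 1698, 645 and 739 in sam2Δ/sam2Δ (log2FC 1.87) and BSC5 at 699, 360.2 and 391 in sam1Δ/sam1Δ against 2149, 878 and 1057 in sam2Δ/sam2Δ (log2FC 1.44). Outside the run, COS10, a member of a family of similar subtelomeric genes, was at 406, 905 and 820.0 in sam1Δ/sam1Δ against 356, 459.5 and 454 in sam2Δ/sam2Δ (log2FC -0.67), with groups that overlap. In all 3 wildtype libraries, which are not in the fit, PDR18 was at 148.97 to 187.9 and AIF1 at 282.4 to 407, so sam1Δ/sam1Δ is the strain that stands apart here. Of the 11 genes annotated in the last 25 kb 8 were tested, and 7 were counted as higher, 5 of them through that filter. The same 5 are among the 7 genes higher past adjustment, with SAM1 and ARG3. Without sam1Δ/sam1Δ replicate 1, COS10 was lower. Whether DNA is missing at this end in sam1Δ/sam1Δ was not tested.

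**Figure D5:**
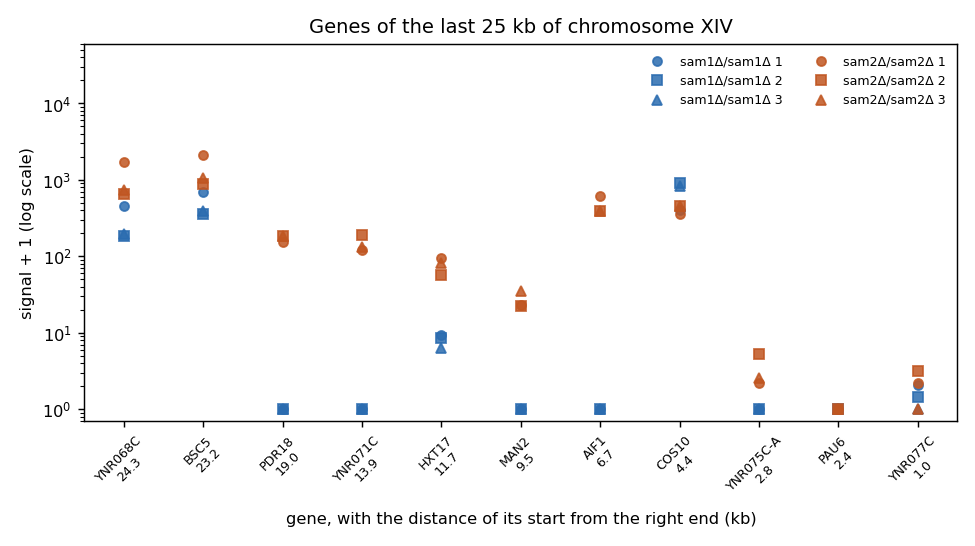
Signal plus 1 (log scale) in each of the 6 libraries for the 11 annotated genes that start in the last 25 kb of chromosome XIV, in their order, with the distance of the start from the right end in kb. The sam1Δ/sam1Δ libraries are at 0 (plotted at 1) for PDR18, YNR071C, MAN2 and AIF1 and low for HXT17, while COS10 has signal in all 6.

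Beyond these groups, 4 further genes were lower in sam2Δ/sam2Δ past adjustment with a mean signal over 50 and a locus of their own. OYE3 (chromosome XVI, 226169 to 227371), an NADPH oxidoreductase of the old yellow enzyme family, was at 2347, 1787 and 1932 in sam1Δ/sam1Δ against 481, 392 and 462 in sam2Δ/sam2Δ (log2FC -2.18 with an SE of 0.16, adjusted P = 0.0022). YML131W, a reductase-like gene induced by oxidants, was at 3777, 3287 and 3478 in sam1Δ/sam1Δ against 1471, 1156 and 1334 in sam2Δ/sam2Δ (log2FC -1.42 with an SE of 0.15, adjusted P = 0.014). HBN1, a nitroreductase-like gene, was at 368, 375 and 377 in sam1Δ/sam1Δ against 182, 187 and 181 in sam2Δ/sam2Δ (log2FC -1.02 with an SE of 0.13, adjusted P = 0.03), a small difference between very even libraries. YGL262W, near the left end of chromosome VII and of unknown function, was at 112, 154 and 122 in sam1Δ/sam1Δ against 16.99, 15.2 and 6.13 in sam2Δ/sam2Δ (log2FC -3.34 with an SE of 0.39, adjusted P = 0.021). YLR154W-F was also past adjustment (log2FC -2.39 with an SE of 0.24, adjusted P = 0.011), but its locus holds 9 genes in the ribosomal DNA region. Of 22 oxidative stress genes 5 were lower and 0 higher: OYE3, the aryl alcohol dehydrogenase genes AAD15 (-2.17) and AAD4 (-0.87), OYE2 (-0.65) and SOD2, the mitochondrial superoxide dismutase (-0.64). AAD15 passed the filter only through sam1Δ/sam1Δ and had to be lower once tested. The share called was 22.7% with AAD15 included, against 12.0% over all genes. With the GC trend removed 4 of the 22 were higher and 3 lower, AAD15 again among the lower, and SOD2 was at -0.04. Among the higher genes with the lowest P, BER1, at 302, 243 and 207 in sam1Δ/sam1Δ against 561, 595 and 619 in sam2Δ/sam2Δ (log2FC 1.25), IRC10, at 88.2, 86.4 and 95.6 in sam1Δ/sam1Δ against 200.2, 216 and 172 in sam2Δ/sam2Δ (log2FC 1.11), and LSM2, a subunit of the Lsm complexes of mRNA decay and splicing, at 118, 109 and 68.6 in sam1Δ/sam1Δ against 745, 316 and 779 in sam2Δ/sam2Δ (log2FC 2.55), had adjusted P values of 0.053, 0.067 and 0.074.

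Genes of carbon metabolism and growth gave few calls that held. The share called was 23.8% for glycolysis and fermentation, against 12.0% over all genes. It was 6.25% for the citric acid cycle and respiration, 9.68% for the cell wall and 8.33% for heat shock and stress. Over all genes the share was 15.6% without sam2Δ/sam2Δ replicate 3 and 19.8% without sam1Δ/sam1Δ replicate 1, against which the counts for these fits are to be read. Of 21 glycolysis and fermentation genes 5 were lower, PDC6 (-1.09), ADH1 (-0.95), HXK2 (-0.62), PFK2 (-0.62) and PFK1 (-0.60), but these genes are GC-rich (median 45.2%), and 1 was lower and 1 higher with the GC trend removed, as without sam2Δ/sam2Δ replicate 3. Of 48 genes of the citric acid cycle and respiration, IDH1 (-1.04) and QCR6 (-0.73) were lower and COX7 (1.09) higher. With the GC trend removed QCR6 (-0.33) was not called. Of 31 cell wall genes YPS3 (-0.89), HSP150 (-0.87) and PIR3 (-0.64) were lower, and none of them passed with the GC trend removed. The ribosome biogenesis genes had a median of -0.37 with 1 lower of 63, 10 lower without sam2Δ/sam2Δ replicate 3 and 10 without sam1Δ/sam1Δ replicate 1. Between libraries on the same side of the shared axis, their median was -0.02 on the side of sam1Δ/sam1Δ replicate 1. It was 0.18 on the side of sam2Δ/sam2Δ replicate 3. That replicate and sam1Δ/sam1Δ replicate 1 are each the only library of their strain on their side, here and in the same-side medians below. Ribosomal protein genes gave 0 higher and 2 lower of 79 for the large subunit (RPL14B, -0.69, and RPP2B, -0.68) and 1 higher of 56 for the small subunit (RPS10B, 0.59). Without sam1Δ/sam1Δ replicate 1 it was 1 and 14, and 1 and 11. On the same sides of the axis, the medians were 0.17 and -0.41 for the large subunit and 0.18 and -0.43 for the small. Of 36 heat shock and stress genes, GRE1 (-1.84) and GRE2 (-0.82) were lower and CTT1, the cytosolic catalase, higher (0.69), and without sam1Δ/sam1Δ replicate 1 15 were higher and 2 lower. Their medians on the same sides of the axis were -0.07 and 0.24, against 0.41 over the 6 libraries. On the list of 21 hexose transporters and sugar genes only HXT17 and MAN2 passed the cutoffs. Both passed the filter only through sam2Δ/sam2Δ and had to be higher once tested.

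Nucleotide, repair and cell cycle genes showed single differences. The shares called were 10% for purine and histone genes, 10.3% for DNA repair and 11.1% for the cell cycle, against 12.0% over all genes. They were 6.67% for calcineurin and calmodulin and 3.57% for ergosterol. They were higher for pyrimidine and dNTP (19.2%), serine, glycine and folate (15.8%), and biotin and haploid-specific genes (14.3%). Drug efflux was near 12.0% with PDR18 included. Of 4 a-specific and 4 α-specific genes tested 50% each were called. Of 20 purine genes ADE8 (-1.01) and ADE5,7 (-0.70) were lower, with a list median of -0.50. Without sam1Δ/sam1Δ replicate 1, where 19.8% of all genes were called, 9 were lower, and with the GC trend removed 0 were. Of 26 pyrimidine and dNTP genes, SDT1, a nucleotidase, at 736, 424 and 402 in sam1Δ/sam1Δ against 1700.2, 1276 and 743 in sam2Δ/sam2Δ (log2FC 1.22) and CGI121, a subunit of the KEOPS complex (0.85), were higher, and URA3, URA1 (-0.69) and SML1, the inhibitor of ribonucleotide reductase (-0.60), were lower. Of 19 serine, glycine and folate genes GCV3 (-0.68), ADE3 (-0.68) and SER33 (-0.67) were lower. With the GC trend removed GCV3 (-0.13), ADE3 (-0.23) and SML1 (-0.26) were not called, while SER33 (-0.69) was. On the list of 7 biotin genes only ACC1 was lower (-0.80), which encodes acetyl-CoA carboxylase, an enzyme that carries biotin, so no gene of biotin synthesis or uptake passed. Of 29 DNA repair genes 2 were lower, among them RAD59 (-0.88), and 1 was higher, RAD55 (0.59). With the GC trend removed RAD59 (-0.76) was still called and RAD55 (0.42) was not. RAD50, RAD28, RAD23 and MSH4 had log2FC of 0.57, 0.48, -0.53 and 0.50 and did not pass. Of 27 cell cycle genes CLN1 (0.70), CDC20 (0.69) and SWI5 (0.64) were higher, and SWI5 (0.53) was not called with the GC trend removed. HTB1 (0.62) was the 1 higher of 10 histone genes, of which 7 were higher without sam2Δ/sam2Δ replicate 3. Of 28 ergosterol genes only ERG28, a scaffold of the sterol C-4 demethylation complex, was higher, at 3203, 3376 and 2999.8 in sam1Δ/sam1Δ against 4455, 5168 and 5236 in sam2Δ/sam2Δ (log2FC 0.63), and ERG11, the azole target, was at 13108, 35570.5 and 33089 in sam1Δ/sam1Δ against 7461, 16050.1 and 30458 in sam2Δ/sam2Δ (95% interval -2.10 to 0.72). Of 23 drug efflux genes QDR2 was lower at 1188, 663 and 583 in sam1Δ/sam1Δ against 299.8, 388 and 263 in sam2Δ/sam2Δ (log2FC -1.30 with an SE of 0.29, adjusted P = 0.097), and YOR1 (0.71) and PDR18 higher. PDR18 passed the filter only through sam2Δ/sam2Δ and had to be higher once tested. Of 15 calcineurin and calmodulin genes FAR1, a pheromone-response inhibitor of the cell cycle that is also on the haploid-specific list, was higher (0.61). The other haploid-specific genes did not pass, of the a-specific genes STE6 was higher (0.62) and BAR1 lower (-0.62), and of the α-specific genes SAG1 was higher (0.69) and MF(ALPHA)2 lower (-0.71). Without sam2Δ/sam2Δ replicate 3, SAG1 (0.576) and BAR1 (-0.54) were not called. With the GC trend removed, MF(ALPHA)2 (-0.28) and STE6 (0.50) were not called.

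Genes beside the deletions and the strain markers were read as a check of the loci. Next to SAM1, YLR179C was at 1093, 1189 and 1059 in sam1Δ/sam1Δ against 580.1, 714 and 429 in sam2Δ/sam2Δ (log2FC -0.98) and VTA1 at 792, 638 and 673 in sam1Δ/sam1Δ against 458, 547 and 396 in sam2Δ/sam2Δ (log2FC -0.59), both lower in sam2Δ/sam2Δ. In wildtype, outside the fit, YLR179C was at 824 to 1116 and VTA1 at 505 to 763, ranges that overlap the sam1Δ/sam1Δ levels and, for VTA1, also the sam2Δ/sam2Δ levels. The groups of the mutants do not overlap, but YLR179C was at -0.46 and not called with the GC trend removed, and VTA1 was not called without sam2Δ/sam2Δ replicate 3 (-0.48) or without sam1Δ/sam1Δ replicate 1 (-0.50). Next to SAM2, PLM2 and LPP1 had log2FC of 0.81 (95% interval -0.02 to 1.65) and 0.08 (95% interval -0.41 to 0.57) and did not pass. URA3 was lower at 12252, 12014 and 11974 in sam1Δ/sam1Δ against 6772, 6749 and 5923 in sam2Δ/sam2Δ (log2FC -0.90 with an SE of 0.16, adjusted P = 0.076), as was TRP1 at 3309, 2552 and 2533 in sam1Δ/sam1Δ against 1718, 1339 and 1266 in sam2Δ/sam2Δ (log2FC -0.96 with an SE of 0.19, adjusted P = 0.087), and both held with any 1 library left out. CAN1 (0.76) and LYS2 (1.23) were higher with overlapping groups, ADE2 did not pass (-0.48), and HIS3 was listed at 0 in all 6 libraries.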

How the data were processed

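Poly-A RNA of 3 diploid strains, 3 libraries each, was sequenced with 75-base single-end reads. The authors mapped untrimmed reads to R64-1-1 (TopHat2 2.0.13), and per the labels Cufflinks and Cuffnorm 2.2.1 made the values. The deposited table holds signal, reads estimated per gene by the authors' program and divided by a library factor, for 7126 genic regions, of which 1420 share a locus. Totals were 9.38 to 10.9 M in the 6 libraries compared. The annotation release and the normalization setting are not given in the sources used here.

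limma 3.58.1 in R 4.3.3 with a mean-variance trend was fitted to log2(signal + 1) of the 6 mutant libraries, for genes with at least 10 in at least 3 libraries. Cutoffs of 0.05 for P and 0.58 for the size of the log2FC were used, and P values were adjusted by Benjamini-Hochberg over 6107 genes. Values after ± are SDs and an SE belongs to the log2FC. The fit was also run on simulated data with independent noise for each gene and library. These data held neither the shared axis nor the GC trend, so they are no test of calls under them. Wildtype was used only in 1 alternative and where named. Motifs and coding sequences were read with Python 3.11.15 from the RefSeq copy of R64, in which 5266 of 5276 genes alone at their locus have the table's coordinates.

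The comparison, gene lists and tests were chosen with earlier results of these data known. Named genes are SAM1 and SAM2, their neighbours, strain markers, the 15 largest differences each way past adjustment with no overlap and a mean of at least 50, the 10 lowest P each way among DEGs, up to 6 DEGs with the largest difference of each list (the 2 most abundant members where none passed), genes listed at 0 in 1 mutant with a mean of at least 50 in the other, and genes in the study's Results. Outside the rule, and named after their values were seen, are ARG80 to ARG82, AFT1, AFT2, LEU4, ORT1, SIT1, ARN1, ARN2, HMX1, COT1, GTO3, DUG3, BSC5, COS10, the mating-type genes and the genes with a Leu3 motif. Divided by the value of 1 read, every gene alone at its locus came out whole within 0.05, but of genes that share a locus only 89.6 to 91.5% did in the 6 libraries, so tests for read counts were not run; limma-voom on recovered reads was an alternative. Single values of some named genes are not reported here.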

Additional observations from a re-analysis of the deposited data

Results flagged for a closer look

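Of the genes too low for the test, 2 had a signal in 1 mutant library that was at least 3 times that of each of the other 8 libraries, wildtype included, and at least 20 units. Both were in sam2Δ/sam2Δ replicate 3. STE18, the γ subunit of the pheromone G protein and a haploid-specific gene, was at 148.5 there and at 14.5 or below in the other 8, at a locus with 2 other genes. YGL193C, of unknown function, was at 83.5 there and at 13.1 or below elsewhere.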

How the results depend on the processing

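Leaving out 1 library gave 494 to 1207 DEGs, 236 to 604 higher, 246 to 603 lower and 13 to 53 genes past an adjusted P of 0.05 with limma; a strain left with 2 libraries has less to estimate its spread. All maxima are without sam1Δ/sam1Δ replicate 1, and the lowest counts of higher genes, 236 and 238, are without sam1Δ/sam1Δ replicate 3 and sam2Δ/sam2Δ replicate 1. With the GC trend removed there were 455 DEGs, 175 of them lower. With all 9 libraries in 1 fit, 37 genes passed adjustment. Other alternatives, pseudocounts of 0.5 and 5, no filter, a mean of at least 50, other scaling factors, limma-voom and genes alone at their locus, kept each count within 1.5 times. Of 188 named genes none changed direction where called, and 73 of the 141 called ones lost the call under at least 1 of 17 alternatives, 42 of them with the GC trend removed and 17 without sam2Δ/sam2Δ replicate 3. With a block for the replicate number 930 genes passed both cutoffs, 456 higher and 474 lower, and 455 passed adjustment, but the numbers do not pair the libraries: deviations of same-numbered libraries correlated at 0.70, -0.19 and 0.66, and sam1Δ/sam1Δ replicate 2 correlated best with sam2Δ/sam2Δ replicate 3 (0.65). The cause of these shifts was not tested. The planned tests for read counts were not run, since values of genes that share a locus are not all whole reads. Depth limits genes near a signal of 10, where 1 read is worth 2.18 in sam2Δ/sam2Δ replicate 2.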

Other observations

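Over all 7126 genic regions and 9 libraries, few genes reached 50 in 1 library and at least 4 times the signal of every other library. There were 3 in sam2Δ/sam2Δ replicate 3 (MF(ALPHA)1, STE18 and YGL193C), 2 in wildtype replicate 1 (PHO84 at 7642 against 1611 or less, and PHO89 at 993 against 202 or less) and 0 in each of the other 7 libraries. In the comparison of the mutants the same 2 phosphate genes were lower in sam2Δ/sam2Δ with overlapping groups.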
